A study of Mus musculus with 10 samples.

Results

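Tubastatin A is an inhibitor of HDAC6, the cytoplasmic deacetylase of α-tubulin, and it was compared here with its solvent in cultured muscle stem cells at matched time. The comparison takes all 4 libraries of cells kept for 24 h with 40 µM Tubastatin A and all 3 libraries of cells kept for 24 h with an equal volume of DMSO (vehicle), 7 of the 10 libraries of the series, and all 12803 genes of the deposited table. The other 3 libraries, of cells frozen directly after sorting, enter only the estimate of spread. Each library came from the cells of 1 young male C57BL/6 mouse, sorted from limb muscle as CD45-, CD31-, Sca1- and VCAM+ cells. Both cultured groups were kept in Ham's F-10 medium with 10% horse serum on plates coated with extracellular matrix. No genotype differed between groups. There was 1 dose and 1 time, and the labels give no second deacetylase inhibitor, so effects of HDAC6 inhibition and other effects of 40 µM compound cannot be told apart in this design.

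Muscle stem cells, or satellite cells, rest between the myofibre and its basement membrane, marked by the transcription factor Pax7. Once taken out of the muscle they activate: they switch on Myod1, build ribosomes and membranes and enter the cell cycle. HDAC6 removes acetyl groups from α-tubulin, from cortactin and from the chaperone HSP90, it takes part in the resorption of the primary cilium, and through its ubiquitin-binding domain it carries ubiquitinated protein aggregates towards autophagy. Autophagy delivers proteins and organelles to the lysosome, whose acid interior is made by a proton pump, the V-ATPase, while the proteasome degrades single ubiquitinated proteins.

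Levels are RPKM, reads per kilobase of gene scaled to library size. Changes are differences of log2(RPKM + 1), Tubastatin A minus vehicle, with their standard error (SE) and the Benjamini-Hochberg adjusted p of limma over all genes. Genes with an adjusted p under 0.05 are called higher or lower, and "rose" and "fell" are used only of them, with sizes on the log2 scale where no unit is given. By this rule 59.3% of all genes were called, 29.6% higher and 29.7% lower, and 18.8% were called with at least a 2-fold change. The groups did not overlap for 68.6% of genes, and the median change over all genes was 0.02. Every list below is to be read against these shares. The libraries held 37.7 to 55.6 M reads in the table. Other scalings moved the level of all genes by 0.03 to 0.18 on the log2 scale towards Tubastatin A, so changes of that size depend on the scaling. RNA came from bulk cultures, in which fewer cells of a type and less RNA per cell cannot be told apart.

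**Figure D1:**
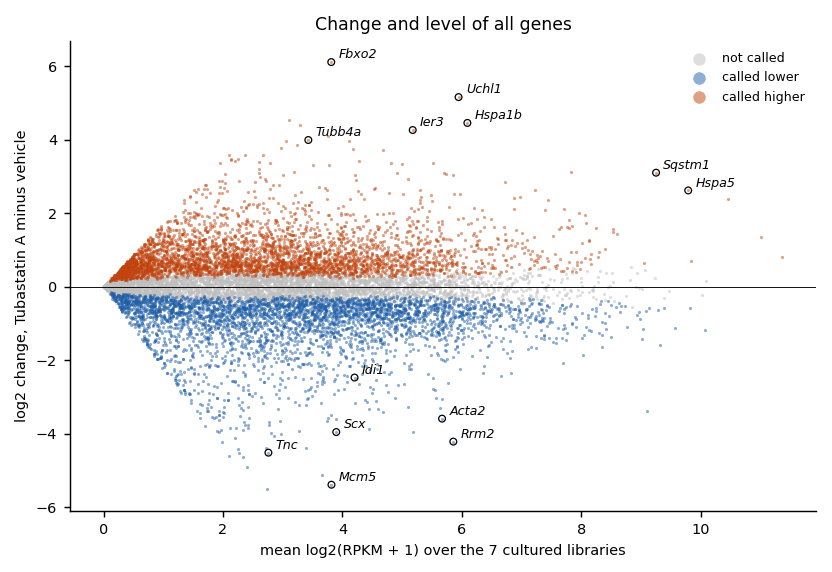
Each point is 1 gene: its mean log2(RPKM + 1) over the 7 cultured libraries on the horizontal axis and its log2 change, Tubastatin A minus vehicle, on the vertical axis, coloured by call. The 3796 genes called higher and the 3798 called lower are spread over all levels. Circles mark genes named in the text, with Fbxo2 at the top (log2 change 6.11), and the wedge at the left comes from the pseudocount of 1 RPKM.

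Treated library 2 stood apart from the other treated libraries. In RPKM + 1 it lay at least 2-fold above all 3 others in 81 genes, against 1 to 6 such genes for each of the others. Muscle differentiation genes were among the 81, as described below. Satellite cell markers were present in every cultured library. Under 1 RPKM in every cultured library were 8 of 10 endothelial, 2 of 4 immune and 7 of 11 fibro-adipogenic markers measured. So were 2 of 4 glial and 2 of 2 red blood cell markers. A further 8 immune, 1 fibro-adipogenic, 3 glial and 4 red blood cell markers were not measured. With vehicle and Tubastatin A the endothelial list summed to 3.34 to 4.67 and 6.27 to 6.98 RPKM, with 1 gene higher and 1 lower. The glial list summed to 2.55 to 3.49 and 5.32 to 6.87 RPKM, with 2 higher and 1 lower. Cdh5 of endothelium stood at 0.0662 ± 0.0561 RPKM with vehicle and 0.113 ± 0.00813 RPKM with Tubastatin A, Lyz2 of myeloid cells at 0.0144 ± 0.00513 and 0.107 ± 0.0314 RPKM, and Pdgfra of fibro-adipogenic cells at 0.00675 ± 0.00424 and 0.0585 ± 0.0387 RPKM. Some lists moved through single members that other cells also express. The 9 pericyte and smooth muscle markers summed to 421.8 to 580.4 RPKM with vehicle and 133.5 to 221.3 RPKM with Tubastatin A through Acta2 and Des, with the pericyte gene Rgs5 at 0.109 ± 0.0462 RPKM with Tubastatin A, and the 4 measured immune markers to 1.6 to 2.37 and 7.10 to 9.67 RPKM through Cd14 and Cd68, the latter a lysosomal protein. The 11 fibro-adipogenic markers summed to 40.0 to 47.6 and 9.50 to 17.3 RPKM, mostly through Col3a1. The highest treated sums of the pericyte and fibro-adipogenic lists were those of library 2. The part of such other cells in the results below was not tested.

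Transcripts of protein and organelle clearance rose together under Tubastatin A. All 16 subunits and accessory proteins of the V-ATPase rose, as did 30 of 31 proteasome subunits, 28 of 32 autophagy genes and 27 of 30 measured lysosomal genes. Their median changes were 1.23, 1.03, 1.11 and 0.97, against 0.02 over all genes. As summed levels, the proteasome list took 3617, 3925 and 3943 RPKM in the vehicle libraries and 7754, 7819.8, 7429.6 and 8734 RPKM in the treated ones, and these ranges are far apart. The autophagy list summed to 581.5, 591.7 and 603.9 RPKM and 2601, 2578, 2490.2 and 2778 RPKM, where Sqstm1 alone makes up more than the rest of the list with Tubastatin A.

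Among autophagy receptors, which tie ubiquitinated cargo to the forming autophagosome, Sqstm1, which encodes p62, measured 171.9, 176.5 and 183.9 RPKM with vehicle and 1541, 1509.7, 1441 and 1624 RPKM with Tubastatin A (log2 change 3.10, SE 0.19, adjusted p = 1.1e-07). Tax1bp1, a receptor of the same kind, rose from 16.6 ± 2.14 to 60.1 ± 7.41 RPKM (log2 change 1.79). Among the ubiquitin-like proteins that coat the autophagosome, Gabarapl1 measured 28.7, 34.0 and 37.7 RPKM with vehicle and 230.2, 240.3, 255.7 and 255.3 RPKM with Tubastatin A (log2 change 2.84, SE 0.19). In all 3 genes every treated library lay above every vehicle library. Among genes of earlier steps, Atg13 of the initiating kinase complex rose by 1.2 and Atg14 of the lipid kinase complex by 1.56. Wipi2, which reads the lipid made by that complex, rose by 1.21. These rises were smaller than those of the 3 genes above but larger than the list median of 1.11. The initiating kinase gene Ulk2 fell, from 6.06, 5.79 and 5.02 to 3.25, 2.98, 3.27 and 4.08 RPKM, a log2 change of -0.60. That fall was not called with a pseudocount of 5, under 3 of the 4 other scalings, or without vehicle replicate 1 or 2 or treated replicate 1, 2 or 3 in turn.

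In the lysosome list the proteases carried the highest levels. Ctsd, cathepsin D, measured 105.2, 116.0 and 112.4 RPKM with vehicle and 479.7, 436.1, 395.7 and 494.2 RPKM with Tubastatin A (log2 change 2.01, SE 0.13). Ctsl and Ctsb, 2 cysteine cathepsins, rose by 2.17 and 1.90, and Ctsh, which was at 0.811 ± 0.0583 RPKM with vehicle, by 2.10. Neu1, the lysosomal sialidase, rose by 1.93 and Grn, the progranulin gene, by 1.79. The exception of size was Gusb, β-glucuronidase, which went the other way, from 33.5, 36 and 34.2 RPKM to 6.54, 6.70, 7.23 and 7.69 RPKM (log2 change -2.15, SE 0.11). The proton pump rose in both of its parts: Atp6v1h, a regulatory subunit of the cytosolic part, went from 9.09, 8.90 and 8.88 to 61.3, 56.5, 53.2 and 59.6 RPKM (log2 change 2.56), and Atp6v0a1 of the membrane part from 3.30 ± 0.271 to 19.0 ± 2.35 RPKM. Atp6ap2, an accessory protein, rose by 1.83.

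Proteasome changes covered a narrow range of sizes, from 0.44 to 1.66, and the groups did not overlap for any of the 31. Psmb3, a subunit of the proteolytic core, measured 108.8, 122.2 and 122.8 RPKM with vehicle and 347.9, 372.6, 349.4 and 427.8 RPKM with Tubastatin A (log2 change 1.66, SE 0.18). In the regulatory particle Psmd4, a ubiquitin receptor, went from 96.6, 106.9 and 111.9 to 302.3, 308.0, 306.1 and 330.3 RPKM, and the scaffold subunit Psmd2 rose by 1.48. Core and regulatory subunits thus both rose. Zfand2a, which encodes a proteasome-associated protein induced by arsenite, was among the 15 highest changes of well expressed genes, at 7.84 ± 0.595 and 74.2 ± 4.90 RPKM. Of the 25 deubiquitinases 9 rose and 4 fell. Usp14, which acts on the proteasome, rose by 1.17 and Stambp, which acts at endosomes, by 0.77, while Usp1, which acts on monoubiquitinated PCNA, fell with a log2 change of -1.76. Fbxo2, an F-box protein that recognises glycoproteins for ubiquitination, had the largest rise among genes under 1 RPKM with vehicle, from 0.259, 0.381 and 0.121 to 100.3, 77.8, 74.4 and 91.0 RPKM (log2 change 6.11, SE 0.14).

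**Figure D2:**
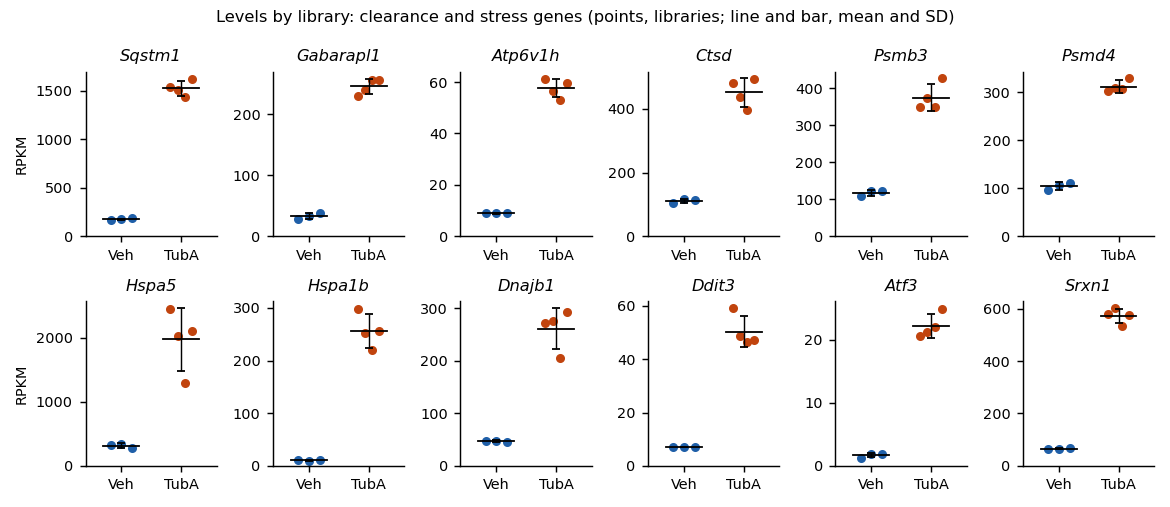
Levels in RPKM of 12 genes of autophagy, lysosome, proteasome and stress responses in the 3 vehicle (Veh, blue) and 4 Tubastatin A (TubA, orange) libraries, with mean and SD. Each axis starts at 0. In all 12 genes every treated library lies above every vehicle library, with Sqstm1 at 1529 ± 76.0 against 177.4 ± 6.02 RPKM.

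Chaperone genes rose in part. In the endoplasmic reticulum 11 of 20 genes rose and none fell, with a median change of 0.65. In the list of cytosolic chaperones, which also holds the mitochondrial Hspd1, 9 of 21 rose and 1 fell, Hspd1 itself, with a median of 0.32. Of this list 14 rose when libraries were scaled without the mitochondrial and 10 most abundant genes. Of the 8 subunits of the CCT chaperonin, which folds tubulin and actin, none rose and 1 fell, Tcp1, at -0.65. The largest rises in the cytosol were those of small and inducible members, while the constitutive Hsp90ab1 did not pass the test, at 1029 ± 16.2 and 1135 ± 51.6 RPKM.

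Hspa5, which encodes BiP, the main chaperone of the endoplasmic reticulum, measured 322.9, 344.2 and 274.9 RPKM with vehicle and 2454, 2034, 1297 and 2104 RPKM with Tubastatin A (log2 change 2.62, SE 0.26, adjusted p = 4.9e-06). The treated libraries spread widely among themselves, with library 3 lowest, and all lie far above vehicle. Dnajb9, a partner of BiP, went from 7.54, 7.58 and 6.65 to 35.5, 33.3, 22.9 and 36.2 RPKM, and Hsp90b1, the HSP90 of this compartment, rose by 1.37. Xbp1, a transcription factor of the unfolded protein response, and Sel1l, of the complex that exports misfolded proteins for degradation, rose by 1.63 and 1.63. The sensor gene Atf6 rose by 1.10.

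In the cytosol Hspa1b, an inducible HSP70, measured 11.8, 9.79 and 10.5 RPKM with vehicle and 298.0, 252.1, 220.3 and 255.2 RPKM with Tubastatin A (log2 change 4.45, SE 0.26, adjusted p = 6.8e-08). Reads of Hspa1b and of its near-identical neighbour Hspa1a, which rose by 3.31, may not be separable. Dnajb1, the HSP40 that serves HSP70, went from 47.7, 48.0 and 45.4 to 270.9, 276.1, 204.6 and 293.5 RPKM. Bag3, which hands HSP70 clients to autophagy, rose by 1.85, and its small heat shock partner Hspb8 went from 14.3 ± 2.02 to 129.4 ± 5.73 RPKM. Cryab, αB-crystallin, a small heat shock protein of muscle, rose by 2.62. The only member that fell was Hspd1, the mitochondrial HSP60, from 496.5 ± 21.7 to 348.7 ± 42.4 RPKM, and that call was lost under 3 of the 4 other scalings and without any 1 of the vehicle libraries or of treated libraries 2 and 3.

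Transcripts of the integrated stress response, the program that follows phosphorylation of eIF2α, rose in part. Of 22 genes 12 rose and 2 fell, with a median change of 0.61. The largest changes of the list include transcription factors and feedback genes. Atf3 measured 1.30, 1.81 and 1.92 RPKM with vehicle and 20.7, 21.2, 22 and 24.9 RPKM with Tubastatin A (log2 change 3.12, SE 0.16, adjusted p = 2.0e-08), and Ddit3, which encodes CHOP, measured 6.96, 7.14 and 7.11 and 59.1, 48.7, 46.5 and 47.4 RPKM (log2 change 2.66, SE 0.12). Ppp1r15a, the phosphatase subunit that reverses the phosphorylation, rose by 2.12, Cebpb by 1.94, and Chac1, which degrades glutathione, by 1.80. Not every member rose. Mthfd2, the mitochondrial folate enzyme, fell from 74.6 ± 7.53 to 36.6 ± 4.67 RPKM, and Asns, asparagine synthetase, was not called, at 90.8, 100.6 and 88.9 RPKM with vehicle and 121.5, 105.7, 81.2 and 96.3 RPKM with Tubastatin A.

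Promoters of these stress genes were read from RefSeq windows on GRCm38.p6, from 250 bases before to 50 bases after each annotated start, which were held for 9975 genes of the table in 12764 windows. Motif letters were searched on both strands, and a match is a description of letters, not a binding site. The amino acid response element TGATGNAA, which binds ATF4 and CHOP dimers, was in 9 of 22 windows of the integrated stress response list (40.9%), against 2.13% of all windows and 3.73% of those of genes called at least 2-fold higher. The endoplasmic reticulum stress element, a CCAAT box and the letters CCACG separated by 9 bases, was in 7 of 17 windows of that chaperone list against 0.141% of all windows. The heat shock element, 3 alternating GAA and TTC units separated by 2 bases, was in 5 of 22 windows of cytosolic chaperones against 0.501% of all and 0.455% of those of genes called at least 2-fold higher. Read only before the start, it was in 2 of 22. These 3 motifs were added after the data were seen, and since these lists hold textbook targets of the factors, their shares describe the lists and do not depend on the treatment. Stretches before the start of called genes, chosen as the largest changes whose motif lies in at least 60 bases free of annotated exons, show the elements in capitals:
Atf3 (amino acid response element, 110 bases before the start; chr1:191183386-191183535, minus strand): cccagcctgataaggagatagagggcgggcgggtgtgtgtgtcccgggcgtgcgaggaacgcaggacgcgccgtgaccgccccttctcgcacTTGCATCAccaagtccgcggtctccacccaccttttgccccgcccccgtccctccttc
Chac1 (amino acid response element, 193 bases before the start; chr2:119350992-119351106, plus strand): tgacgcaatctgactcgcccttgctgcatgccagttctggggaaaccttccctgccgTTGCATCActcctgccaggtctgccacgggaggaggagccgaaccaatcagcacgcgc
Hsp90b1 (endoplasmic reticulum stress element in both orientations; chr10:86705510-86705659, minus strand): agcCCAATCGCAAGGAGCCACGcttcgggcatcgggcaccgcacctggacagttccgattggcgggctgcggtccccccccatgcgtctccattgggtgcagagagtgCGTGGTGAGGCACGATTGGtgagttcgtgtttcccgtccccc
Dnajc3 (endoplasmic reticulum stress element; chr14:118937746-118937895, plus strand): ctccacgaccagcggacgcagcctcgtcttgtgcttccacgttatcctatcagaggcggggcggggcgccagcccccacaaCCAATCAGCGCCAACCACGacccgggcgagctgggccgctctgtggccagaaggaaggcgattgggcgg

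In the same way the E-box CACGTG, bound by TFEB and TFE3 in lysosomal promoters, was in 29% of the windows of the lysosome list and 30.8% of those of the V-ATPase list, against 10% of all windows. Read only before the start, the share of the V-ATPase list was 2 of 13 and that of all windows 8.38%. The proteasome list held it in 3.7%. Over the treatment itself the E-box did not separate the genes: 9% of the windows of genes called at least 2-fold higher held it and 10.9% of those called at least 2-fold lower. Glb1, β-galactosidase, and Atp6v1a, a catalytic subunit of the pump, which rose by 1.32 and 1.49, are shown with the E-box in capitals:
Glb1 (48 bases before the start; chr9:114400926-114401075, plus strand): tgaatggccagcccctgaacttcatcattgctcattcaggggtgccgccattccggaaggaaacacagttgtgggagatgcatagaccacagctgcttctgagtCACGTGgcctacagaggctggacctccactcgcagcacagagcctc
Atp6v1a (131 bases before the start; chr16:44139335-44139461, minus strand): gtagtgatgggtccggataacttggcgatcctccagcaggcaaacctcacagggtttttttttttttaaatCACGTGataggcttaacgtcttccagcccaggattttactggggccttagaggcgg

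Antioxidant transcripts rose in part. Of 25 genes of the NRF2 and glutathione list 12 rose and 4 fell, and 15 to 18 rose and 3 to 4 fell under other scalings. Srxn1, sulfiredoxin, which repairs oxidised peroxiredoxins, measured 63.0, 65.0 and 67.5 RPKM with vehicle and 578.0, 600.8, 535.5 and 575.8 RPKM with Tubastatin A (log2 change 3.11, SE 0.35). Taldo1 and Me1, enzymes that help to supply NADPH and pentoses, rose by 1.72 and 1.67, and Slc7a11, the cystine carrier, rose by 1.5 from a level under 1 RPKM. Blvrb, a biliverdin reductase, went from 14.9 ± 1.48 to 131.7 ± 11.1 RPKM. Against these, Gpx1, a glutathione peroxidase, fell from 274.5 ± 37.7 to 86.2 ± 6.00 RPKM, and G6pdx, which feeds glucose into the pentose phosphate route, from 79.7 ± 2.33 to 40.4 ± 0.553 RPKM. The NRF2 element TGACNNNGC was in 18.4% of windows of genes called at least 2-fold higher, 15% of those at least 2-fold lower and 14.4% of all windows. Read only before the start, these shares were 14.8%, 13.4% and 11.8%. The CREB site TGACGTCA was in 2.36%, 3.65% and 3.01%.

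Cholesterol and fatty acid synthesis fell almost as a whole. Of 33 genes 29 fell and none rose, 21 of them at least 2-fold, with a median change of -1.25. Summed, the list stood at 1273, 1278 and 1245 RPKM with vehicle and at 515.9, 530.7, 448.4 and 514.3 RPKM with Tubastatin A. In the mevalonate pathway Idi1, isopentenyl diphosphate isomerase, measured 46.2, 52.8 and 45.6 RPKM with vehicle and 6.63, 9.22, 7.69 and 7.93 RPKM with Tubastatin A (log2 change -2.48, SE 0.18, adjusted p = 3.3e-07), and Fdps, farnesyl diphosphate synthase, 7.15 ± 0.507 and 0.790 ± 0.219 RPKM. Nsdhl, of the later sterol steps, fell with a log2 change of -2.10. Of the fatty acid enzymes, the desaturase Fads2 went from 44.5, 47.6 and 52.5 to 5.69, 6.89, 6.26 and 5.53 RPKM and the elongase Elovl6 fell with a log2 change of -2.17. No treated library reached the lowest vehicle library in any of these genes. The factor genes behaved unlike each other: Srebf2, of sterol synthesis, fell from 67.1 ± 7.39 to 35.8 ± 3.39 RPKM, and Srebf1 was not called, at 24.4 ± 1.16 and 29.1 ± 5.36 RPKM. Srebf1, Srebf2, Asns and Hsp90ab1 were named after their values were seen.

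Transcripts of ribosomes and their assembly fell in nearly every member, 6 genes of each list at least 2-fold. Over all genes the median size of a change was 0.45. Of 32 cytosolic ribosomal protein genes 28 fell and none rose, with a median change of -0.75, and of 30 genes of ribosome biogenesis 28 fell and none rose, with a median of -0.67. Under other scalings 24 to 26 and 20 to 28 fell, still with none higher. Npm1, nucleophosmin, a nucleolar chaperone of ribosome assembly, went from 350.0, 373.0 and 414.5 to 137.5, 134.8, 145.1 and 132.2 RPKM, and Dkc1, which pseudouridylates ribosomal RNA, fell by 1.44. Nuclear genes of the respiratory chain followed to a lesser degree, with 20 of 30 lower, 1 higher and a median of -0.54, for instance Ndufs3 of complex I at -1.03 and Cyc1 of complex III at -0.91. Other scalings left 15 to 19 of them lower.

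Glycolysis and fatty acid oxidation showed no common direction. Of 23 glycolysis genes 7 rose and 8 fell. Slc2a1, the glucose transporter GLUT1, rose from 13.5 ± 1.03 to 44.1 ± 4.21 RPKM and Pfkp, a phosphofructokinase, by 1.11, while Ldha, lactate dehydrogenase A, fell from 674.3 ± 87.2 to 313.6 ± 29.2 RPKM and Eno1, an enolase, with a log2 change of -0.88. Among 22 fatty acid oxidation genes, 8 rose and 6 fell, with Acadvl, the very long chain dehydrogenase, higher by 1.78 and Ucp2, a mitochondrial carrier, lower at -1.65.

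**Figure D3:**
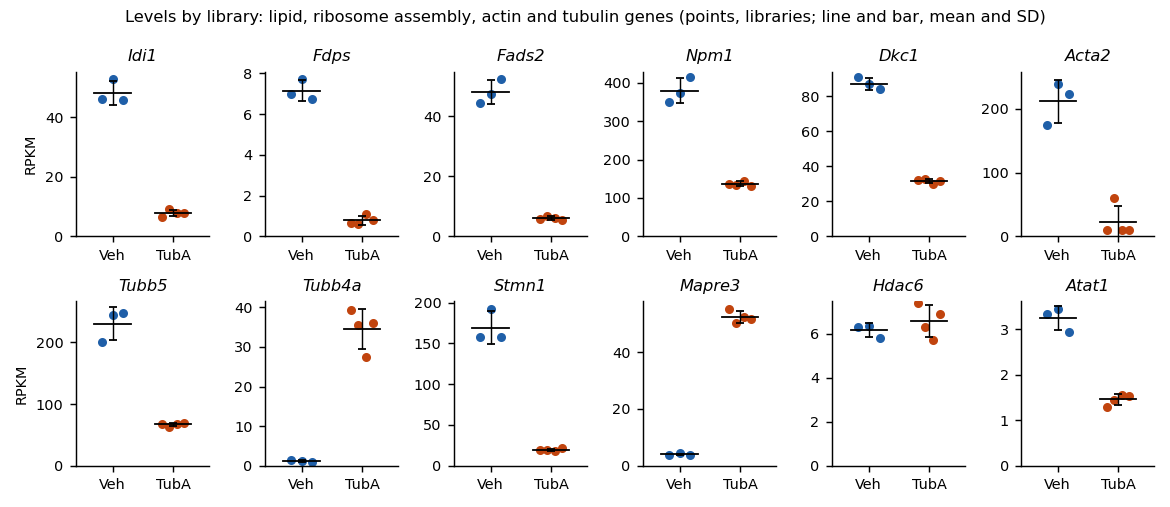
Levels in RPKM of 12 genes of lipid synthesis, ribosome assembly, actin, tubulin and tubulin acetylation in the 3 vehicle (Veh, blue) and 4 Tubastatin A (TubA, orange) libraries, with mean and SD. Each axis starts at 0. Hdac6, at 6.16 ± 0.313 and 6.60 ± 0.717 RPKM, is the only gene shown that was not called, and in Acta2 the high treated library is library 2.

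The transcript of the target itself did not change detectably. Hdac6 measured 6.32, 6.36 and 5.80 RPKM with vehicle and 7.40, 6.33, 5.74 and 6.92 RPKM with Tubastatin A, with overlapping groups (log2 change 0.08, SE 0.12, adjusted p = 0.58). A transcript level says nothing about the activity of the enzyme, which an inhibitor acts on. Of 17 histone deacetylase and sirtuin genes 5 rose and 4 fell. Sirt2, a sirtuin that also deacetylates α-tubulin, rose from 13.3, 14.6 and 16.7 to 35.5, 34.5, 33.4 and 38.2 RPKM (log2 change 1.2, SE 0.11), the only member that changed at least 2-fold. Hdac4 and Hdac5, class II enzymes that restrain MEF2 factors, rose by 0.62 and 0.65, and Hdac10, a polyamine deacetylase, fell by 0.79. Atat1, the acetyltransferase that acetylates α-tubulin, fell from 3.33, 3.44 and 2.94 to 1.29, 1.44, 1.56 and 1.53 RPKM (log2 change -0.79). On the transcript level the acetylating Atat1 was thus lower and the deacetylating Sirt2 higher. Of 25 partner and acetyltransferase genes 3 rose and 7 fell, but 5 rose and 5 fell when libraries were scaled without the mitochondrial and 10 most abundant genes. Examples are Kdm1a, a histone demethylase of the CoREST complex, higher by 0.97 and Kat2a, the acetyltransferase GCN5, lower at -1.41.

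Tubulin transcripts changed by isotype rather than together. Of 16 genes 6 rose and 7 fell, and the summed level of the list differed little, at 1832, 2141 and 2138 RPKM with vehicle and 1758, 1761, 1649 and 1910.2 RPKM with Tubastatin A. Tubb5, the main β-tubulin of dividing cells, measured 199.9, 244.2 and 247.2 RPKM with vehicle and 67.4, 63.3, 67.5 and 70.2 RPKM with Tubastatin A (log2 change -1.76, SE 0.11). Tuba1b, an α-tubulin, fell with it, from 519.0 ± 55.1 to 213.7 ± 3.29 RPKM. Tubb4a, a β-tubulin known from neurons and glia, rose from 1.54, 1.27 and 0.891 to 39.2, 35.5, 27.3 and 36 RPKM (log2 change 3.99, SE 0.14), and Tubb2a rose by 0.96, while Tubb3, the neuronal class III isotype, fell by 0.58. In these 5 genes the groups did not overlap. The binding proteins changed in the same mixed way, with 6 of 22 higher and 5 lower: Mapre3, the end-binding protein EB3, went from 3.88, 4.35 and 3.92 to 55.3, 50.3, 52.3 and 51.8 RPKM, and Stmn1, stathmin, which sequesters tubulin, from 157.5, 192.7 and 157.9 to 18.8, 19.3, 18.1 and 21.5 RPKM.

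Genes of the primary cilium and of Hedgehog signalling showed no common direction either. Of 35 measured genes 9 rose and 8 fell, and 10 to 14 rose under other scalings. Bbs4 and Bbs9, subunits of the coat that sorts ciliary membrane proteins, rose by 1.29 and 1.11, Ift46 of the intraflagellar transport train by 1.05, and Kif3a, a motor of that train, by 0.87. Gas1, a Hedgehog co-receptor, fell from 70.4, 60.2 and 60.5 to 6.88, 6.28, 5.12 and 6.71 RPKM. Arl13b, a GTPase of the ciliary membrane, measured 3.38, 3.85 and 3.86 RPKM with vehicle and 4.48, 4.41, 4.24 and 4.14 RPKM with Tubastatin A and was not called (log2 change 0.18, adjusted p = 0.37). Of 11 genes of cilium disassembly, Aurka, Plk1, Nek2, Kif24, Nde1 and Ccp110 fell, most of which also serve the centrosome in dividing cells, whereas Cttn, cortactin, a substrate of HDAC6, rose from 77.4, 72.1 and 66.3 to 170.4, 162.9, 136.4 and 162.2 RPKM (log2 change 1.12). Ccp110 was chosen after its values were seen.

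More genes of the actin cytoskeleton and of adhesion fell than rose, and others were not called. Of 25 actin and motility genes 16 fell and 4 rose (median -0.97), and of 19 adhesion and migration genes 11 fell and 3 rose (median -0.81). The risers of both lists were few and uncertain: 2 actin genes rose without vehicle replicate 2 or 3 or treated replicate 3, and 1 adhesion gene rose without any 1 of the vehicle libraries or of treated replicates 1, 2 and 4. Acta2, smooth muscle actin, measured 174.1, 238.7 and 222.8 RPKM with vehicle and 10.7, 60.8, 10.4 and 10.3 RPKM with Tubastatin A (log2 change -3.59, SE 0.49), where library 2 was the high one. Vim, vimentin, went from 265.6 ± 50.4 to 48.2 ± 4.74 RPKM and Tpm1, a tropomyosin, from 117.4 ± 18.3 to 28.2 ± 5.42 RPKM. Gsn, gelsolin, which severs actin filaments, rose by 1.46. Lgals1, galectin-1, one of the most abundant transcripts with vehicle, went from 1681, 2302 and 2419 RPKM to 166.9, 221.9, 220.8 and 191.1 RPKM (log2 change -3.40). Cav1, caveolin, fell with a log2 change of -2.78, Cdh2, N-cadherin, of -2.17, and Ncam1, an adhesion protein of myoblasts, of -1.59, while Icam1 rose from 1.03, 1.29 and 1.32 to 10.5, 9.38, 8.09 and 9.27 RPKM.

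Matrix genes moved in both directions. Of 29 measured genes 13 rose and 8 fell. Tnc, tenascin C, which is laid down during regeneration, fell from 43.7, 40.1 and 35.4 to 0.918, 0.897, 0.782 and 0.509 RPKM (log2 change -4.52, SE 0.21, adjusted p = 1.3e-08), and the fibrillar collagens Col3a1 and Col5a2 fell with log2 changes of -2.40 and -2.42. Among those that rose were 2 basement membrane genes, with Nid1, nidogen, up from 1.5, 1.06 and 0.781 to 9.68, 8.27, 8.39 and 7.05 RPKM and Lama5, a laminin chain, up by 1.18. Col5a3, a collagen V chain, rose by 1.88. Scx, scleraxis, a transcription factor best known from tendon, was well expressed with vehicle. It fell from 65.7, 75.6 and 70.2 to 1.85, 8.71, 2.88 and 3.13 RPKM (log2 change -3.96, SE 0.35). The highest treated value is that of library 2, and without that library the log2 change was -4.32. Of the 6 other tenocyte markers measured, 4 were under 1 RPKM in every cultured library. None of these 6 fell and 2 rose, 1 of them at least 2-fold. Htra1, a secreted serine protease, rose from 2.62 ± 0.622 to 55.1 ± 7.66 RPKM.

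Several signalling lists held genes of both directions, to be read against 29.6% higher and 29.7% lower over all genes. Of 18 YAP and TEAD genes 3 rose and 6 fell: Ccn2, a matricellular protein, rose from 10.2, 16.4 and 17.9 to 70.6, 78.6, 64.6 and 104.7 RPKM while Axl, a receptor kinase, fell with a log2 change of -2.35 and Ankrd1 of -1.05. Of 21 chemokine and NF-kB genes 8 fell and 1 rose, with Ccl2 and Ccl7, chemokines for monocytes, lower at -2.37 and -2.60 and Cxcl12, the ligand of the receptor CXCR4, at -3.04, against Icam1 above. Of 32 BMP and TGF-β genes 11 rose and 9 fell, shares of 34.4% and 28.1% that lie near those of all genes. Id1, Id2 and Id3, targets of BMP signalling that block myogenic factors, fell with log2 changes of -1.45, -2.0 and -1.53, while Bmp6, a ligand, rose from 19.8 ± 0.969 to 53.2 ± 5.31 RPKM. Among growth factor receptors 11 of 24 rose and 5 fell, the latter 3 without vehicle replicate 3. Fgfr1 rose from 23.6, 23.7 and 21.8 to 89.8, 78.7, 75.6 and 79.8 RPKM, whereas Fgfr4, a receptor of satellite cells, fell from 52.0, 48.8 and 46.0 to 10.0, 11.2, 9.20 and 9.92 RPKM. Met, the receptor of hepatocyte growth factor, an activator of these cells, fell by 1.57.

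Immediate early genes and FoxO targets were mostly higher. Of 25 immediate early genes 15 rose and 5 fell, the latter 3 without vehicle replicate 1 or treated replicate 3 and under 3 of the 4 other scalings. Ier3, a target of stress and growth signals, measured 4.46, 5.49 and 7.44 RPKM with vehicle and 117.5, 121.2, 127.2 and 144.2 RPKM with Tubastatin A (log2 change 4.26, SE 0.18, adjusted p = 5.8e-09), and Dusp1, a phosphatase of MAP kinases, went from 15.7 ± 1.6 to 72.5 ± 13.7 RPKM. Klf2, a Krüppel-like factor, fell from 12.3 ± 1.90 to 1.55 ± 0.111 RPKM. Of 18 FoxO factors and targets 12 rose and 1 fell, with Gadd45a, a growth arrest gene, from 9.69, 11.5 and 12.5 to 109.4, 111.2, 134.1 and 141.0 RPKM and Fbxo32, the ubiquitin ligase atrogin-1, from 0.193 ± 0.0639 to 2.41 ± 0.189 RPKM. Klf15 and Ccng2 rose by 1.84 and 1.57. Among p53 targets 10 of 24 rose and 8 fell, the latter 5 without vehicle replicate 3: Gdf15, a stress cytokine, went from 3.34, 3.07 and 2.99 to 66.1, 55.5, 40.2 and 57.5 RPKM, Bax, a killer protein of the BCL2 family, fell by 0.84 and Cdkn1a, p21, was not called at 138.1 ± 16.1 and 113.0 ± 26.3 RPKM. In the BCL2 family 2 of 14 rose and 5 fell, among them Bcl2l1, which encodes the survival protein BCL-XL, at -1.2.

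**Figure D4:**
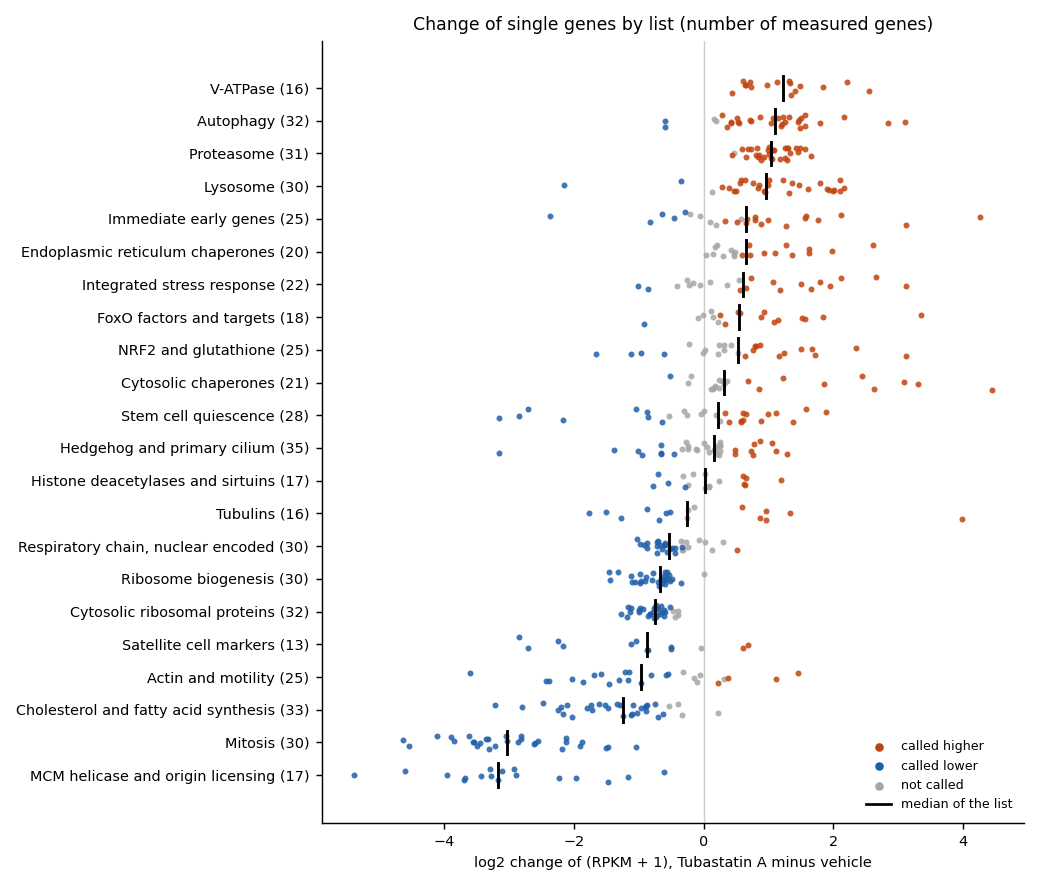
Each point is 1 gene of the list named at the left, placed by its log2 change and coloured by call, with the list's median as a black line and the number of measured genes in brackets. Lists are ordered by median, from -3.16 for replication licensing to 1.23 for the V-ATPase. Members of the proteasome and ribosome lists lie close together, while those of quiescence, cilium and tubulin lists spread to both sides of 0.

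Replication and mitosis genes fell without exception, 17 of 17 licensing genes and 30 of 30 mitosis genes, and the values here add how even this was between libraries. The licensing list summed to 1083, 1131 and 954.8 RPKM with vehicle and 118.8, 118.4, 105.5 and 120.0 RPKM with Tubastatin A. The mitosis list summed to 409.0, 472.0 and 320.2 and 17.0, 30.2, 15 and 16 RPKM, and the highest treated value is again library 2. Polymerases and fork proteins fell in 24 of 24 members, with Lig1, the ligase of Okazaki fragments, from 60.3, 64.2 and 46.2 to 3.43, 3.71, 3.67 and 3.25 RPKM. Pbk, a mitotic kinase, measured 58.5, 71.3 and 47.0 RPKM with vehicle and 0.242, 0.864, 0.0740 and 0.124 RPKM with Tubastatin A (log2 change -5.51), the largest fall among genes under 1 RPKM with Tubastatin A. Pclaf, a PCNA-binding protein, and Spc24, of the kinetochore, fell with log2 changes of -4.92 and -4.42. All 13 genes of nucleotide supply fell as well, among them Rrm2, the small subunit of ribonucleotide reductase, at -4.22. Of 17 G1 cyclin, kinase and E2F genes 15 fell and 1 rose, and of 13 cell cycle inhibitors and pocket proteins 7 rose and 2 fell. The cyclin gene that rose, Ccnd2, cyclin D2, went from 0.124, 0.248 and 0.180 to 2.98, 2.77, 3.34 and 2.53 RPKM. Of 19 DNA methylation and Polycomb genes 3 rose and 9 fell: Dnmt1, the maintenance DNA methyltransferase, and Ezh2, a Polycomb methyltransferase, fell with log2 changes of -2.82 and -1.81, while Ezh1, its paralogue, rose from 5.82, 4.81 and 4.31 to 18.4, 16.1, 14.9 and 15.9 RPKM.

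Promoter letters were also counted in genes that fell and rose. The E2F sites TTTCGCGC, TTTGGCGC and TTTCCCGC were in 8.59% of the windows of genes called at least 2-fold lower, in 1.73% of those at least 2-fold higher and in 3.42% of all windows. The cell cycle homology region TTTGAA was in 16.6%, 9.64% and 11.7%, and the CCAAT box in 42%, 39.3% and 37.7%. The 95% intervals of the CCAAT shares overlap between lower (39.3 to 44.7%) and higher genes (36.4 to 42.2%). That of lower genes lies above that of all windows (36.8 to 38.5%). Over all called genes the CCAAT shares were 38.20% for lower and 38.25% for higher genes. In the licensing list 8 of 13 windows held an E2F site, and in the mitosis list 22 of 28 held the cell cycle homology region. Read only before the start, these counts were 6 of 13 and 10 of 28. The share of G and C was 61.1% in windows of genes at least 2-fold lower, 61.0% in those at least 2-fold higher and 60.9% in all. Mcm5, a helicase subunit with a log2 change of -5.39, holds 2 overlapping E2F matches on opposite strands, and Cdk1, the mitotic kinase, and Top2a, topoisomerase IIα, with changes of -4.11 and -3.90, hold the cell cycle homology region near their starts, on opposite strands:
Mcm5 (chr8:75109268-75109417, plus strand): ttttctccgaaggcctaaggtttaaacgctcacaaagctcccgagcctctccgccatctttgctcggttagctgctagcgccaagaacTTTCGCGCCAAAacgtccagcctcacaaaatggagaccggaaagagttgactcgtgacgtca
Cdk1 (71 bases before the start; chr10:69352939-69353088, minus strand): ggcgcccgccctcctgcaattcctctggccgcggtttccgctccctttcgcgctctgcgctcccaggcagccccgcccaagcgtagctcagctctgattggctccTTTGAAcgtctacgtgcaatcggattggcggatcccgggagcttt
Top2a (23 bases before the start; chr11:99024190-99024339, minus strand): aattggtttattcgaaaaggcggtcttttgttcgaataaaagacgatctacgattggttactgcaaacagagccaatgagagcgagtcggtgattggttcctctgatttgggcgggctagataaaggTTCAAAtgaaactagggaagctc

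Stem cell and muscle identity genes did not move as a block. Of 13 satellite cell markers 10 fell and 2 rose, with a median of -0.87. Of 28 measured quiescence genes 13 rose and 8 fell, the fallers by more. Cd34, a surface marker of satellite cells, measured 30.2, 32.3 and 30.0 RPKM with vehicle and 3.80, 3.70, 2.60 and 3.77 RPKM with Tubastatin A (log2 change -2.84, SE 0.13). Vcam1, the marker used to sort the cells, went from 34.5, 36 and 31.6 to 4.61, 4.35, 3.78 and 4.70 RPKM. Pax7 went from 4.58, 4.21 and 5.40 to 2.08, 2.15, 2.65 and 1.68 RPKM (log2 change -0.87, adjusted p = 0.0045), and Myf5, which commits cells to the muscle lineage, from 35.4, 31.5 and 35.3 to 6.74, 6.04, 5.78 and 6.90 RPKM. Calcr, the calcitonin receptor of quiescent cells, rose from 1.22, 1.18 and 1.12 to 2.45, 2.45, 1.84 and 2.54 RPKM (log2 change 0.61, adjusted p = 0.012), which is a low level, and the call was lost with a pseudocount of 5. Of 17 myogenic factor genes 2 rose and 11 fell. Chrdl2, a BMP antagonist, rose from 0.809, 0.803 and 0.573 to 4.16, 4.32, 3.06 and 5.42 RPKM. Spry1, a brake on receptor kinases, was not called, at 28.7, 31.2 and 29.0 RPKM with vehicle and 26.6, 25.9, 19.5 and 24.1 RPKM with Tubastatin A. Pax3, the relative of Pax7, rose by 0.78 at a level near 1 RPKM.

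Muscle differentiation genes are those in which treated library 2 stood apart. Myod1, the activation factor, measured 1079, 1201 and 1279 RPKM with vehicle and 501.2, 530.1, 567.0 and 558.6 RPKM with Tubastatin A, with no overlap, and library 2 is not apart there (log2 change -1.13, SE 0.38, adjusted p = 0.022). The call of Myod1 was lost without vehicle replicate 2 or vehicle replicate 3 in turn. Its log2(RPKM + 1) had an SD of 0.12 between vehicle and 0.081 between treated libraries. Both lie below its SE, which also takes in the fresh libraries and other genes. Myog, myogenin, which drives terminal differentiation, measured 16.7, 19.1 and 10.4 RPKM with vehicle, 195.2 RPKM in treated library 2 and 1.99, 1.68 and 2.05 RPKM in the other treated libraries. With all libraries it was not called (log2 change -0.94, adjusted p = 0.53), and without library 2 it fell by 2.45 (adjusted p = 3.9e-06). Acta1, skeletal actin, measured 14.7, 22.8 and 14.8 RPKM with vehicle, 311.0 RPKM in library 2 and 3.28, 3.18 and 3.89 RPKM in the others. Of 24 differentiation genes 23 were highest in library 2 among the treated libraries, and 17 of them lay at least 2-fold above all 3 others in RPKM + 1. The list summed to 979.8 RPKM in library 2, to between 183.7 and 216.4 RPKM in the other treated libraries and to between 416.3 and 542.0 RPKM with vehicle. With all libraries 1 gene of the list rose and 5 fell, and without library 2, 1 rose and 8 fell. Myofibre markers moved in the same way, with 423.2 RPKM summed in library 2, 8.11 to 9.59 RPKM in the others and 66.0 to 91.8 RPKM with vehicle. The part of cells of another state or of carried-over myofibre RNA in library 2 was not tested.

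**Figure D5:**
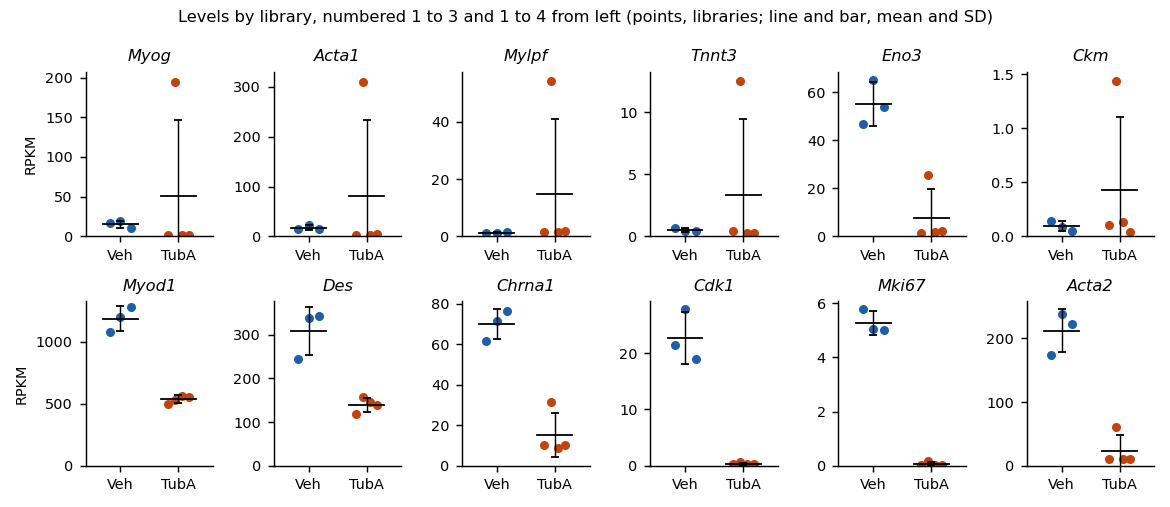
Levels in RPKM of 12 genes in the 3 vehicle (Veh, blue) and 4 Tubastatin A (TubA, orange) libraries, in order of replicate number from left to right, with mean and SD, each axis from 0. In Myog, Acta1, Mylpf, Tnnt3 and Ckm treated library 2 lies above every other library. Myod1, Des and Cdk1 lie lower in all 4 treated libraries than in any vehicle library.

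Genes known from neurons were also among those that rose. Of 18 measured genes of this list 11 rose and 2 fell, with a median of 0.47, and 18 other genes of the list are not in the table. Only 3 of the measured genes rose at least 2-fold, and Tubb3, the class III tubulin, fell with a log2 change of -0.58. Uchl1, a ubiquitin hydrolase of neurons, measured 6.4, 6.34 and 8.37 RPKM with vehicle and 252.5, 271.6, 321.4 and 293.7 RPKM with Tubastatin A, and Clu, clusterin, an extracellular chaperone, went from 2.53, 1.85 and 1.84 to 32.6, 31.3, 22 and 33.5 RPKM. Syn1, a synaptic vesicle protein, rose by 1.05 and Rab3a, a GTPase of secretion, by 0.87, both from levels under 1 RPKM. Aplp1, a relative of the amyloid precursor protein that is not in the list, went from 0.504, 0.348 and 0.407 to 36.5, 30.3, 26.6 and 35.7 RPKM. Among replacement and linker histones 6 of 13 fell, with H2afx and H2afz, variants of H2A, lower at -1.81 and -1.39, and 1 rose, Hist1h1c, a linker histone gene, from 0.641, 1.59 and 2.32 to 16.3, 11.4, 14.6 and 14.6 RPKM. The clock list had no common direction, with 5 of 17 higher and 4 lower, the latter 1 to 2 without any 1 of the vehicle libraries or of treated replicates 1, 3 and 4. Its largest change was that of Nr1d1, the repressor REV-ERBα, from 14.3, 14.3 and 16.6 to 73.7, 71.9, 74.2 and 85.8 RPKM (log2 change 2.27).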

How the data were processed

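Per the labels' protocols, libraries were made with SMART-Seq v4 from 5 ng of RNA and sequenced from both ends for 150 bp each. The submitters' processing notes name the build mm10 and the tools STAR, edgeR, Trim Galore and Subread's featureCounts; versions, annotation and strand setting are not given in the sources used here. The authors deposited 1 table without a unit in its header, taken here as RPKM: with union exon lengths of GENCODE M21, 12721 symbols (99.4%) matched, and dividing by 1 factor for each library gave read numbers whole within 0.05 for 12398 genes (96.8%). The deposited RPKM are thus relative to a scaled library size, of which the reads in the table made up 0.91 to 0.93 times in vehicle and 0.83 to 0.89 times in Tubastatin A libraries. No value is 0: 2468 values of 754 genes stand at a floor in place of 0 reads. Reads of overlapping, antisense or near-identical genes may not be separable.

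In R 4.3.3, limma 3.58.1 was fitted to log2(RPKM + 1) of all 12803 genes with a variance trend and 1 mean for each of the 3 groups (7 residual degrees of freedom), without a filter. The pseudocount understates changes of low genes. p-values rest on the spread between single animals within all 3 groups, fresh cells included, drawn towards a trend over genes of like level. They do not measure the spread of the cultured libraries alone, and a fit of those libraries is among the alternatives. Single values per library were compared with exact permutation tests, whose smallest possible p with 4 against 3 libraries is 0.057. Python 3.11.15 ran matplotlib 3.10.9, scipy 1.17.1, numpy 2.4.6 and, for tables, pandas 2.3.3.

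The comparison and the 55 gene lists were chosen with earlier results of these data known. Genes were named by a rule: the 15 highest and 15 lowest changes among called genes without a predicted symbol whose groups do not overlap and whose log2(RPKM + 1) averages 4 or more; up to 6 members of each list with the lowest p and its largest called change in each direction; the 10 highest called genes among those under 1 RPKM in the other group; the 10 genes that vary most between Tubastatin A libraries; and a fixed set with Hdac6, Pax7, Myod1 and Myog. Not all are described, and some results are not reported here. Asns, Ccp110, Hsp90ab1, Srebf1 and Srebf2 fall outside it, and Dnajc3, Glb1 and Top2a are named for their promoters. Promoter windows are RefSeq's for GRCm38.p6, the assembly behind mm10. They cover 9975 genes of the table (77.9%), and 9 motifs were searched, 3 of them added after the data were seen.

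Alternatives were pseudocounts of 0.1 and 5, a filter at a mean of 1 RPKM, the 7 cultured libraries alone, a replicate block, 4 scalings, sample quality weights, a robust prior, voom on the recovered reads (12086 genes averaging 10 or more), an adjusted p under 0.01 and each of the 10 libraries left out.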

Additional observations from a re-analysis of the deposited data

Results flagged for a closer look

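In 19 of 185 genes named above, 1 of the 4 Tubastatin A libraries lay far from the other 3, with a gap to the nearest of them beyond Dixon's 95% critical value. Chance gives such a gap in about 1 of 20 groups of independent values, which is no baseline for these genes. Some of them were named for their spread between these same libraries, and genes that vary together are not independent. Library 2 was the far one, and the highest, in 11 of these genes. Of muscle differentiation, Myog stood there at 195.2 RPKM, Acta1 at 311.0 RPKM, Mylpf, a myosin light chain, at 54.2 RPKM, Tnnt3, a troponin, at 12.5 RPKM and Ckm, muscle creatine kinase, at 1.44 RPKM. Of the cytoskeleton, Acta2 stood at 60.8 RPKM and Tpm1 at 36.3 RPKM. Of the cell cycle, Cdk1 stood at 0.613 RPKM, Plk1 at 1.82 RPKM, Pclaf at 0.585 RPKM and Spc24 at 0.798 RPKM, all still below every vehicle library. Library 3 was the far one in Calcr at 1.84 RPKM, Cd34 at 2.60 RPKM and G6pdx at 41.2 RPKM. Library 4 was the far one in Ccng2 at 14.8 RPKM, Kif3a at 21.3 RPKM, Neu1 at 15.4 RPKM, Nr1d1 at 85.8 RPKM and Rgs5 at 0.177 RPKM.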

How the results depend on the processing

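The counts of genes called higher and lower stayed within 1.5 times of the values above under all 23 alternatives, and every gene called in both fits had the same direction. The number called lay between 6588 and 8341 with 1 library left out, 3233 to 4192 of them higher, 3323 to 4149 lower and 2338 to 2496 at least 2-fold. The count of genes called at least 2-fold moved with the scale: 3982 with a pseudocount of 0.1, 1134 with 5 and 4036 with voom, against 2402. Voom on the recovered reads called 7670 genes in all, against 7594 in the main fit. The widest departures were 9854 genes called with sample quality weights, 8895 with the 7 cultured libraries alone and 5954 at an adjusted p under 0.01. The share of all genes called thus depends on the fit. Without the mitochondrial and 10 most abundant genes in the scaling, 59.8% of calls were higher, against 49.99%. The medians of the Polycomb, BCL2, CCT, clock and endothelial lists, all near 0, changed sign under at least 1 scaling, and no other list median did.

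Of the 169 named genes that were called, 164 were called in the same direction under every alternative that tested them. The other 5 are Calcr, Dnajc3, Hspd1, Myod1 and Ulk2. Among named genes that were not called, the sign of the change turned in Acta1 and Myog with quality weights, at 0.87 and 0.48, and in 3 genes with 1 library left out. Acta1 ranged from -2.03 to 0.046 then, at 0.035 and 0.046 without Tubastatin A replicates 1 and 3. Without Tubastatin A replicate 2, Tnnt3 was at -0.17 and Ckm at -0.0044, the lowest values of ranges that reach 0.97 and 0.40.

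Shares of promoter windows depend on the window and on the genes counted. Read only before the start, E2F sites were in 6.38% of windows of genes at least 2-fold lower, the cell cycle homology region in 12.6% and the NRF2 element in 14.8% of those at least 2-fold higher. Over all genes called, the shares were 6.20% for E2F sites, 13.9% for the cell cycle homology region and 38.20% for the CCAAT box among lower genes, and 16.1% for the NRF2 element and 38.25% for the CCAAT box among higher genes. Over all windows, reading only before the start lowered the E-box from 10.02% to 8.38% and the CCAAT box from 37.66% to 35.29%.

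Replicate numbers are shared between the groups. Deviations of same-numbered libraries correlated at 0.376, 0.0364 and 0.30, the first and last being the highest of all pairs. Vehicle 2 correlated best with Tubastatin A 4, at 0.264. Whether the numbers pair the samples cannot be told from these values, and the labels do not say. With a replicate block 7136 genes were called, 3564 higher and 3572 lower, 2408 of them at least 2-fold.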
